A study of Mus musculus with 18 samples.

Results

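This comparison asked whether mouse cells that lack Dusp5 go through the interval between 1 h and 3 h of phorbol ester treatment differently from wild-type cells. The quantity was, for each gene, the change from 1 h to 3 h in knockout cells minus the same change in wild-type cells, on the log2 scale. It rests on 12 of the 18 arrays of the series, in 4 groups of 3. The groups were wild-type cells at 1 h and at 3 h of treatment with the phorbol ester TPA at 100 ng/ml, and DUSP5 knockout cells at the same times and dose. All cells were primary embryonic fibroblasts grown from male C57BL/6 embryos of day 13.5, and the embryos of both genotypes were littermates. No solvent group is among these samples, so a change between the times also holds any effect of time in culture after handling. Untreated cells of both genotypes, 3 arrays each, are given only as the starting level. The labels do not say whether the 3 arrays of a group came from separate cultures or embryos, so p-values measure the spread between these arrays, which may be technical.

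DUSP5 is a phosphatase of the cell nucleus that removes phosphate from the kinases ERK1 and ERK2 and holds them there. Its own gene is switched on by ERK signalling, so it works as a feedback brake. TPA activates protein kinase C and, through it, the Ras, Raf, MEK and ERK cascade. In fibroblasts such a stimulus turns on immediate early genes such as Fos and Egr1 within the hour, most of which are soon shut off again, and a later wave of secreted and structural genes follows. A slower shut-off would leave an early gene higher in the knockout at 3 h, and a steeper late wave would raise a late gene further; both give a positive difference.

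The targeted gene was measured first. Dusp5 level (log2) was 11.07, 11.16 and 11.23 in wild-type arrays at 1 h and 10.59, 10.71 and 10.49 at 3 h. In the arrays labelled knockout it was 10.04, 10.20 and 10.31 at 1 h and 9.87, 9.93 and 10.03 at 3 h. All 6 knockout values at these times lay below all 6 wild-type values, and the probe was still detected on every knockout array. Dusp5 itself fell by 0.55 (adjusted p = 2.8e-04) in wild type, and its genotype difference in change was 0.31 ± 0.13 (standard error, adjusted p = 0.63). The sources used here do not place the probe within or outside the deletion, so its signal checks the labels only in part.

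Between 1 h and 3 h, 20 of 10902 genes changed differently in the knockout, which is 0.183% of the genes tested. For 15 genes (0.138%) the knockout fell less or rose more, and for 5 (0.0459%) it fell more. A gene was called at a Benjamini-Hochberg adjusted p below 0.05 over all genes in a limma model, and all 20 differences were at least 1.5-fold. At an unadjusted p below 0.05 there were 710 genes (6.51%). Of the 15 positive genes, 4 were early genes that had risen by 1 h and were falling (Arc, Dusp2, Egr1 and Egr3). Another 9 were genes still rising after 1 h, namely Car2, Sstr2, Slpi, Btc, Fam83g, Pdp1, Serpinb2, Foxq1 and Il11. The remaining 2 were Rorb and Simc1, and the 5 negative genes were Ch25h, Tmprss7, Klf2, Ddit4l and Fam110b.

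Both genotypes changed broadly over these 2 h. In wild type 1115 genes (10.2%) changed, 592 up (5.43%) and 523 down (4.8%). In the knockout 1519 (13.9%) changed, 816 up (7.48%) and 703 down (6.45%). The 2 arms share no array. Of the genes that rose, 419 were called in both arms, which is 70.8% of the wild-type list and 51.3% of the knockout list. Of those that fell, 370 were called in both, 70.7% and 52.6% of the lists. No gene was called up in one genotype and down in the other, and over all genes the median difference was −0.01 with quartiles of −0.12 and 0.12. On these 12 arrays 16675 to 17813 probes were detected, and arrays of a group correlated at 0.991 to 0.995. Raw signal, averaged over each array, did not overlap between the genotypes at 1 h (277 to 286 for wild type, 236 to 259 for the knockout) and did at 3 h (262 to 274 and 241 to 299). The part of this signal gap in the results at 1 h was not tested.

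**Figure D1:**
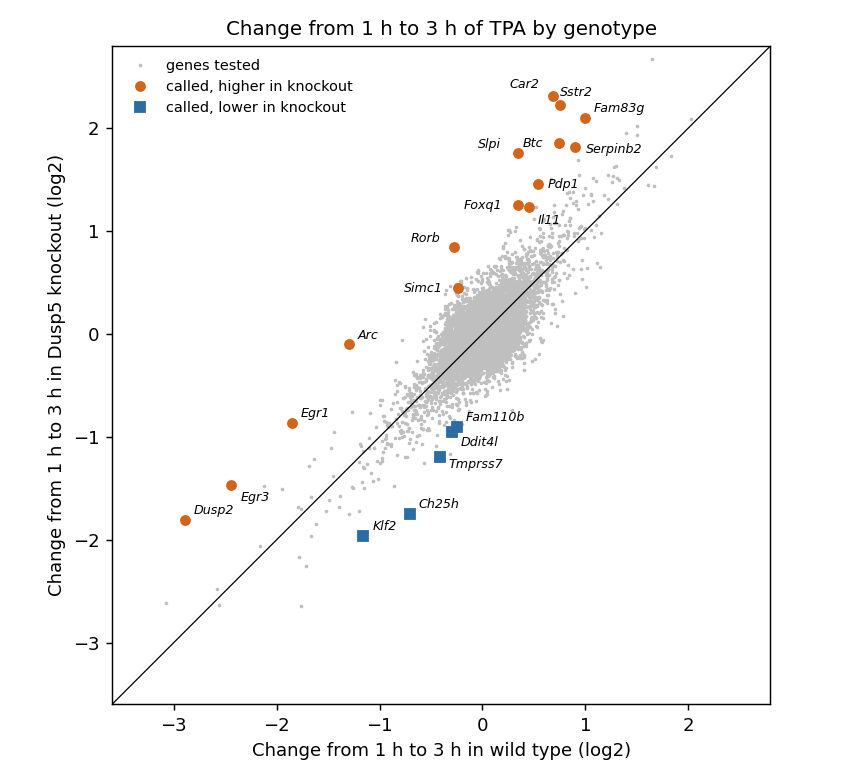
Change from 1 h to 3 h of TPA in wild type (x axis, log2) against the change in Dusp5 knockout cells (y axis, log2), 1 point per gene for 10902 genes, with the line of equal change. The 15 orange circles lie above the line and the 5 blue squares below it. Dusp2, Egr3 and Egr1 sit at the left, falling in both genotypes, and Car2, Sstr2 and Fam83g at the top right, rising in both.

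Among the early genes, Egr1, Egr3 and Dusp2 fell less in the knockout, and Arc fell in wild type alone by the test. Egr1, a zinc-finger transcription factor and a standard readout of ERK signalling, stood at 12.997, 12.869 and 13.034 (log2 level) in wild type at 1 h and at 11.05, 11.32 and 10.97 at 3 h. In the knockout it stood at 13.31, 13.16 and 13.28 at 1 h and at 12.22, 12.45 and 12.49 at 3 h. Wild-type values at 3 h spanned those of untreated wild-type arrays (11.16 to 11.26), while every knockout array at 3 h was above every wild-type array. Egr1 fell 3.62-fold in wild type and 1.82-fold in the knockout. The difference was 0.99 ± 0.14 (log2, adjusted p = 1.7e-03), most of it at 3 h, where the knockout was 2.42-fold higher (adjusted p = 6.8e-08). At 1 h the genotypes differed by 0.28 (adjusted p = 0.17). The Egr1 call held in each of the 12 fits that left out one of these arrays (0.92 to 1.10) and in the other 12 settings tried. Among these settings the 1.5-fold threshold could not end a call, as all 20 differences already met it.

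Egr3, a close relative of Egr1, gave a like pattern on its bright probe. Its levels were 11.30, 11.12 and 11.18 in wild type at 1 h and 8.70, 9.08 and 8.51 at 3 h. Knockout levels were 11.66, 11.42 and 11.74 at 1 h and 10.11, 10.20 and 10.13 at 3 h. Neither time showed overlap between the genotypes. The fall was 5.43-fold in wild type and 2.76-fold in the knockout, a difference of 0.98 ± 0.18 (adjusted p = 0.026). A dimmer Egr3 probe, detected on 12 of 18 arrays, gave −0.27 (unadjusted p = 0.30), and with the mean of both probes the call was lost (0.35, adjusted p = 0.81). Without each of 8 of the 12 arrays in turn Egr3 missed the threshold as well (0.85 to 1.13, adjusted p up to 0.085).

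Dusp2 encodes another nuclear ERK phosphatase and was not detected in untreated cells of either genotype. In wild type it reached 8.12, 8.04 and 7.92 at 1 h and was down to 5.18, 5.26 and 4.95 at 3 h. In the knockout it reached 9.23, 9.39 and 9.23 and still stood at 7.61, 7.37 and 7.46. The knockout was therefore 2.39-fold higher at the peak and 5.08-fold higher at 3 h. Dusp2 fell 7.43-fold in wild type and 3.49-fold in the knockout (difference 1.09 ± 0.14, adjusted p = 7.0e-04), and its second probe gave 0.80 (unadjusted p = 5.4e-04). The size of this difference depended on the background correction. Without background correction the difference was 0.04 (adjusted p = 0.99), and with the authors' normalized values 0.08 (adjusted p = 0.95).

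Arc is an immediate early gene named for its role at synapses, where its product takes part in receptor recycling. Wild-type levels were 6.40, 6.26 and 6.41 at 1 h and 5.04, 5.14 and 4.99 at 3 h. Knockout levels were 7.19, 7.02 and 7.52 at 1 h and 7.24, 6.94 and 7.25 at 3 h. Wild-type Arc fell 2.46-fold to near its untreated mean (4.90), whereas in the knockout the change was −0.10 (95% interval −0.36 to 0.15, adjusted p = 0.70). The knockout was 1.85-fold higher at 1 h and 4.25-fold higher at 3 h, and the difference in change was 1.20 ± 0.17 (adjusted p = 1.7e-03). Without background correction it was 0.38 (adjusted p = 0.096), and with the authors' normalized values 0.42 (adjusted p = 0.074).

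Fos, the partner of Jun in the AP-1 factor, had the same sign but did not pass. It went from 7.36, 7.60 and 8.01 to 5.72, 5.49 and 5.39 in wild type and from 8.61, 8.24 and 8.05 to 6.83, 6.74 and 6.88 in the knockout. Fos was higher in the knockout at both times, by 0.64 at 1 h (adjusted p = 0.040) and 1.29 at 3 h (adjusted p = 4.3e-05). The difference in change was 0.64 ± 0.23 (95% interval 0.16 to 1.12, adjusted p = 0.48). Dusp6, the cytoplasmic ERK phosphatase, gave −0.09 (−0.46 to 0.29, adjusted p = 0.99).

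**Figure D2:**
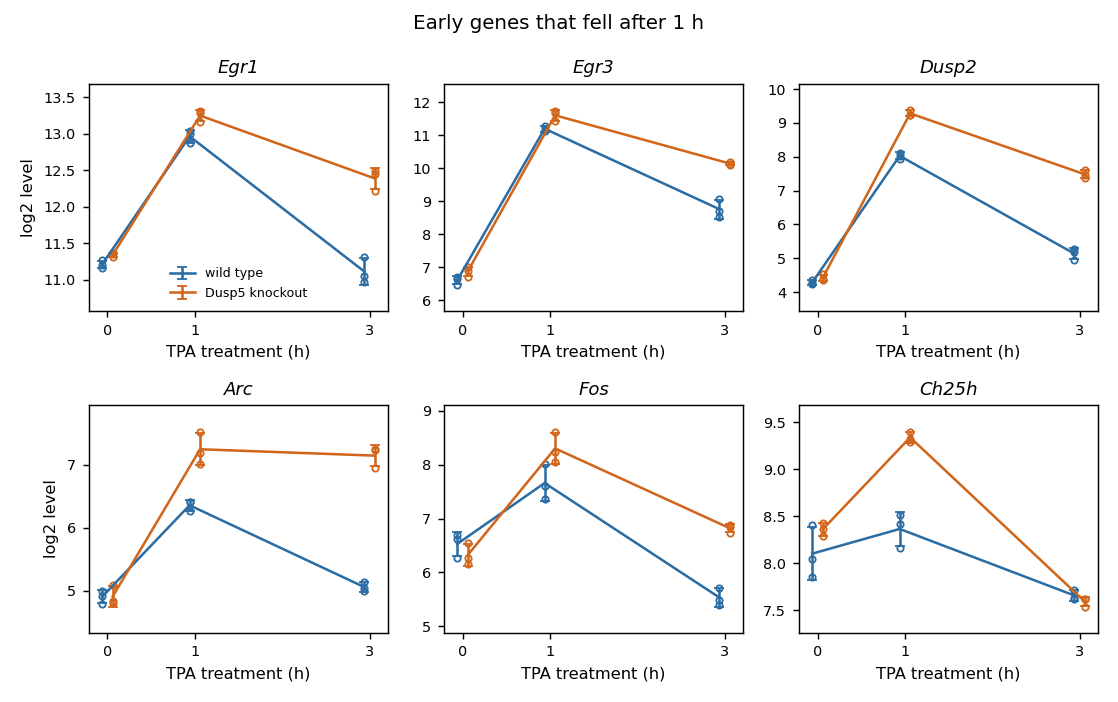
Normalized log2 level (y axis) at 0, 1 and 3 h of TPA (x axis) for 6 early genes, with points for the 3 arrays of a group, lines through the group means and bars for the SD. Egr1, Egr3, Dusp2 and Arc separate most at 3 h, with knockout (orange) above wild type (blue). Fos runs higher in the knockout at both times. Ch25h differs at 1 h, with knockout arrays at 9.29 to 9.40 against 8.16 to 8.51. At 3 h its genotypes lie close (−0.07), with the knockout arrays just below the wild-type arrays.

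Most early falling genes were not called, and their values lay on both sides of 0. An early falling class of 36 genes was set from the mean of both genotypes alone, as genes up at 1 h and down from 1 h to 3 h by at least 1.5-fold each at adjusted p below 0.05. The genotype difference does not enter that mean. Of these 36, 4 were called with a smaller fall in the knockout and 2 with a larger one (Ch25h and Tmprss7), against 0.138% and 0.0459% of all genes. At an unadjusted p below 0.05 there were 18 of the 36, on both sides of 0, against 6.51% of all genes. In the class 16 of 36 differences were above 0 (44.4%), against 48.6% of all genes, and the class median was −0.10 against −0.01. Values above 0 that did not pass included Egr4 (0.46), the AP-1 genes Fosb (0.45) and Junb (0.42), and Csrnp1 (0.40). Values below 0 that did not pass included the chemokine Cxcl1 (−0.87, adjusted p = 0.091), the p53 target Bbc3 (−0.54), Jun (−0.50), the cytokine Csf2 (−0.44), Per1 (−0.40) and the mRNA decay factor Zfp36 (−0.38). When each step had to be 2-fold, 14 genes remained in the class, 64.3% were above 0 and the median less that of all genes turned from −0.10 to 0.42.

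Ch25h, whose enzyme makes 25-hydroxycholesterol, was the clearest gene with a larger fall. Wild-type levels were 8.42, 8.16 and 8.51 at 1 h and 7.63, 7.63 and 7.72 at 3 h. Knockout levels were 9.40, 9.33 and 9.29 at 1 h and 7.54, 7.62 and 7.62 at 3 h. Here the genotypes differed at the peak, where the knockout was 1.96-fold higher (adjusted p = 4.95e-05), and not detectably at 3 h (−0.07, 95% interval −0.31 to 0.18). The fall was 1.63-fold in wild type and 3.36-fold in the knockout, a difference of −1.04 ± 0.17 (adjusted p = 5.0e-03). Tmprss7, a membrane-anchored serine protease gene, was undetected before treatment and had the same shape at a dim level. Its 1 h levels were 5.23, 5.01 and 5.29 in wild type and 5.82, 5.86 and 5.76 in the knockout. At 3 h it ranged from 4.51 to 4.93 and from 4.51 to 4.70, and the difference in change was −0.78 ± 0.15 (adjusted p = 0.036). Scaling arrays to the median of all probes moved the median difference of all genes from −0.01 to 0.20. Ch25h then stood at −0.80 and missed the threshold (adjusted p = 0.32), as did the other 4 negative genes, and all 17 calls were positive. Tmprss7 was also lost without each of 10 of the 12 arrays (−0.91 to −0.70 over the 12) and without background correction (−0.23).

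The called late genes rose further in the knockout. Car2, the gene of carbonic anhydrase 2, was not detected in any array of either genotype at 0 h or 1 h. At 3 h its level was 5.18, 5.17 and 5.15 in wild type and 6.66, 6.71 and 6.73 in the knockout. The values of the genotypes at 3 h do not overlap. From a base below detection Car2 rose at least 1.42-fold in wild type and at least 4.09-fold in the knockout. The fitted difference was 1.63 ± 0.11 (adjusted p = 7.4e-08). Its size is not exact, because both genotypes were below detection at 1 h, and without background correction it was 0.61 (adjusted p = 2.1e-06). At 3 h, where both were detected, the knockout was 2.90-fold higher. At-least folds here set the mean of the bright group against the lowest signal among detected probes on each array of the dim group.

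Sstr2, a receptor for the peptide hormone somatostatin, followed the same course. At 1 h its levels were 4.36, 4.61 and 4.82 in wild type, with 1 array detected, and 4.51, 4.37 and 4.58 in the knockout, with none. At 3 h they were 5.33, 5.52 and 5.20 in wild type and 6.73, 6.60 and 6.79 in the knockout. The genotypes overlap at 1 h and are apart at 3 h, where the knockout was 2.57-fold higher (adjusted p = 1.8e-07). Sstr2 rose at least 4.12-fold in the knockout, and the difference in change was 1.47 ± 0.16 (adjusted p = 9.5e-05).

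Slpi, a secreted inhibitor of neutrophil elastase and other serine proteases, rose in the knockout alone by the test. Its wild-type levels were 4.80, 5.09 and 4.81 at 1 h and 5.23, 5.11 and 5.39 at 3 h, a change of 0.34 (95% interval 0.08 to 0.60, adjusted p = 0.096). The knockout went from 5.44, 5.12 and 5.49 to 7.19, 7.06 and 7.07, a rise of 3.38-fold (adjusted p = 2.8e-09). The test of the difference itself gave 1.41 ± 0.18 (adjusted p = 4.8e-04). Fam83g, whose product binds casein kinase and a BMP pathway SMAD, rose in both genotypes, 1.99-fold in wild type and 4.29-fold in the knockout. Its 3 h levels were 6.67, 6.69 and 6.84 in wild type and 8.19, 7.99 and 8.21 in the knockout, and the difference was 1.11 ± 0.16 (adjusted p = 1.7e-03). Car2, Sstr2, Slpi and Fam83g, with Egr1, were the 5 genes called in every one of the 24 alternatives, of which the 1.5-fold threshold could not end a call. Their sizes moved: without background correction Car2 gave 0.61, Sstr2 0.56, Slpi 0.66 and Fam83g 0.77, and Egr1 0.96.

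Signalling ligands were among the still rising genes, and 2 of 24 growth factors and cytokines tested were called (0.138% of all genes in that direction). Betacellulin, the product of Btc, activates the EGF receptor. Btc was undetected at 1 h in both genotypes and stood at 5.05, 5.11 and 5.54 in wild type and 6.27, 6.01 and 6.28 in the knockout at 3 h. It rose at least 1.49-fold in wild type and at least 2.87-fold in the knockout (difference 1.11 ± 0.21, adjusted p = 0.028; 0.38 without background correction, where it still passed, and 0.79 with median scaling over the tested genes, where it did not). Interleukin 11, of the IL-6 family, was already up at 1 h. Il11 went from 8.68, 8.62 and 8.48 to 8.99, 9.04 and 9.09 in wild type and from 8.70, 8.90 and 9.03 to 10.11, 10.00 and 10.21 in the knockout. Its rise was 1.36-fold and 2.35-fold, a difference of 0.78 ± 0.15 (adjusted p = 0.036). In the same list Il1a (0.75, adjusted p = 0.12) and Edn1 (−0.62, adjusted p = 0.15) lay at opposite ends without passing, and the list median was 0.07. Btc was lost without each of 8 of the 12 arrays (adjusted p up to 0.10), and Il11 without each of 9 (up to 0.13).

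Serpinb2, the plasminogen activator inhibitor PAI-2 and a long-known TPA-inducible gene, was the sole one of the 20 called between genotypes in untreated cells, where it was higher in the knockout. Its levels were 7.55, 7.65 and 7.51 in wild type at 1 h and 8.43, 8.53 and 8.44 at 3 h. In the knockout they were 8.80, 8.85 and 8.80 at 1 h and 10.92, 10.41 and 10.56 at 3 h. The lowest knockout array at 1 h exceeded the highest wild-type array at 3 h. The gap widened from 2.38-fold at 1 h to 4.49-fold at 3 h, a difference in change of 0.92 ± 0.17 (adjusted p = 0.027). Of 15 plasminogen activator and protease genes it was the one called, against 0.138% of all genes called positive. At an unadjusted p below 0.05 there were 4 of the 15, against 6.51% of all genes. Mmp13 (0.56), Plau (0.53) and Mmp10 (0.34) had positive values that did not pass. Serpinb2 was lost without each of 9 of the 12 arrays (0.77 to 1.03, adjusted p up to 0.081) and kept in the other 12 settings.

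Foxq1, a forkhead transcription factor, and Pdp1, the phosphatase that activates pyruvate dehydrogenase, completed the rising genes. Foxq1 ranged from 5.02 to 5.46 in wild type and 4.99 to 5.39 in the knockout at 1 h, then 5.49 to 5.67 and 6.23 to 6.58 at 3 h (difference 0.91 ± 0.18, adjusted p = 0.036). Like Slpi, Foxq1 rose in the knockout alone by the test, with changes of 0.34 in wild type and 1.25 in the knockout. Pdp1 ranged from 5.55 to 5.96 and 5.31 to 5.66 at 1 h, then 6.21 to 6.37 and 6.67 to 7.21 at 3 h (0.91 ± 0.18, adjusted p = 0.045). For both, the genotypes overlapped at 1 h and not at 3 h. A second, dim probe of Pdp1 gave 0.71. Foxq1 missed the threshold without each of 9 of the 12 arrays and Pdp1 without each of 10, with adjusted p up to 0.12 and 0.15. Without background correction both also missed it, Foxq1 at 0.34 and Pdp1 at 0.42 (adjusted p = 0.062 for each), and Foxq1 was lost in 5 and Pdp1 in 6 of 12 settings that kept all arrays of the comparison.

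**Figure D3:**
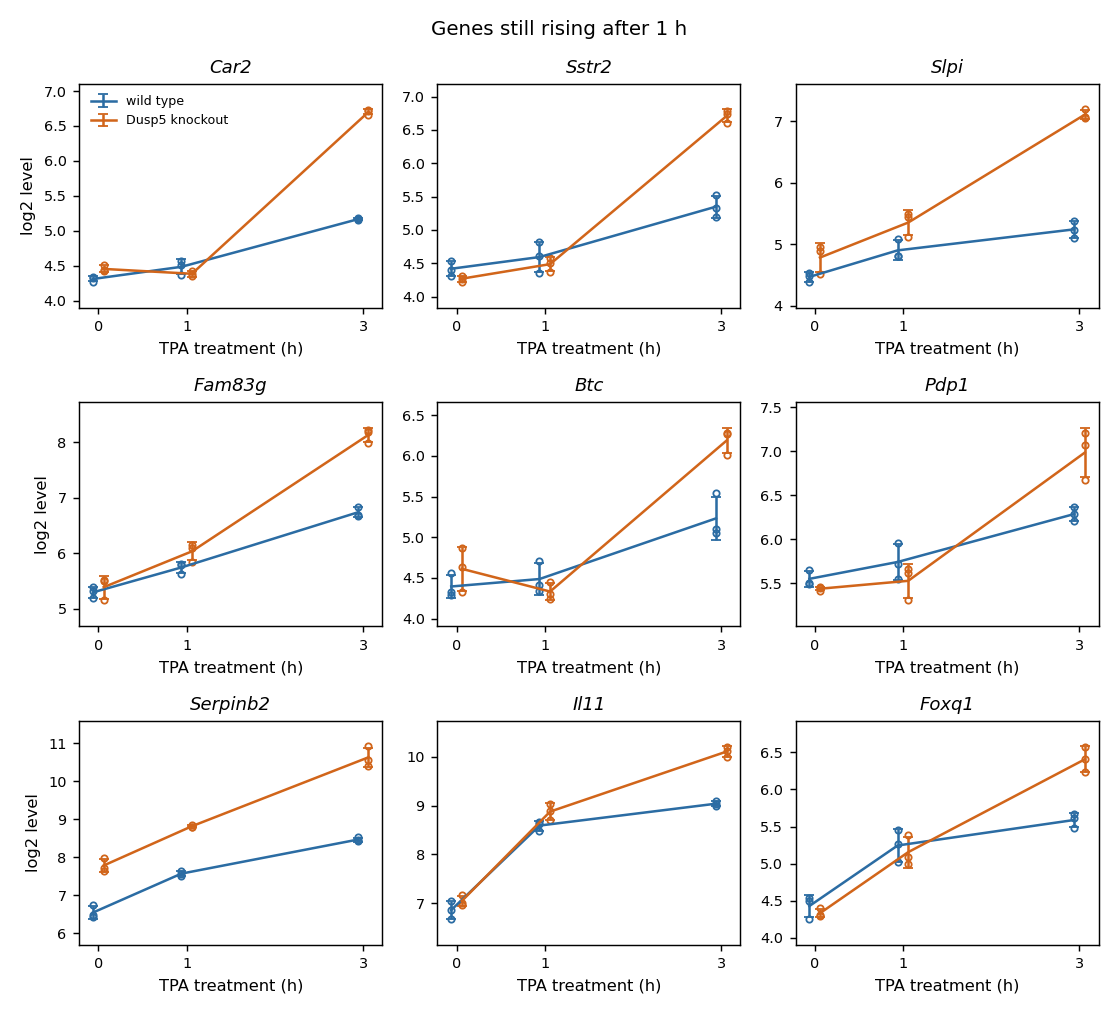
Normalized log2 level (y axis) at 0, 1 and 3 h of TPA (x axis) for 9 genes that rose after 1 h and were called, with points for the 3 arrays of a group, lines through the means and bars for the SD. For Car2, Sstr2, Btc, Pdp1 and Foxq1 wild-type (blue) and knockout (orange) arrays overlap at 1 h and separate at 3 h. Serpinb2 is higher in the knockout at every time.

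Late rising genes had a median difference above that of all genes. The late rising class, again set from the mean of both genotypes, held 142 genes not up at 1 h and up by 3 h. In it 110 differences (77.5%) were above 0, against 48.6% of all genes, and the median was 0.20 against −0.01. Of its members 6 were called higher and 0 lower, against 0.138% and 0.0459% of all genes. At an unadjusted p below 0.05 there were 46 of the 142, against 6.51% of all genes. Among the 27 genes up at 1 h and up again by 3 h, 22 (81.5%) were above 0 and 3 were called, Serpinb2, Foxq1 and Il11. Of the 27, 11 had an unadjusted p below 0.05. The class median was 0.21, and it held uncalled values such as Il1a (0.75), the antioxidant gene Srxn1 (0.60, adjusted p = 0.13), Mmp13 (0.56) and Ndrg1 (0.45). Early held genes, up at 1 h without a further step, had 0 of 75 called in the limma fit, 15 at an unadjusted p below 0.05, and a median of 0.03. Genes that dipped at 1 h and recovered, 20 in all, had 0 called, 4 at an unadjusted p below 0.05, and a median of 0.15. Less the median of all genes, the late rising median was between 0.17 and 0.31 in the other settings and between 0.19 and 0.24 with one array left out. Classes were set anew in each of the other settings, so their members changed. The late rising class held 43 genes with the series matrix values and 40 without background correction, with 3 called in each. It held 41 genes with a 2-fold class threshold. The genes of a class are not independent of each other, and no test was made over classes.

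**Figure D4:**
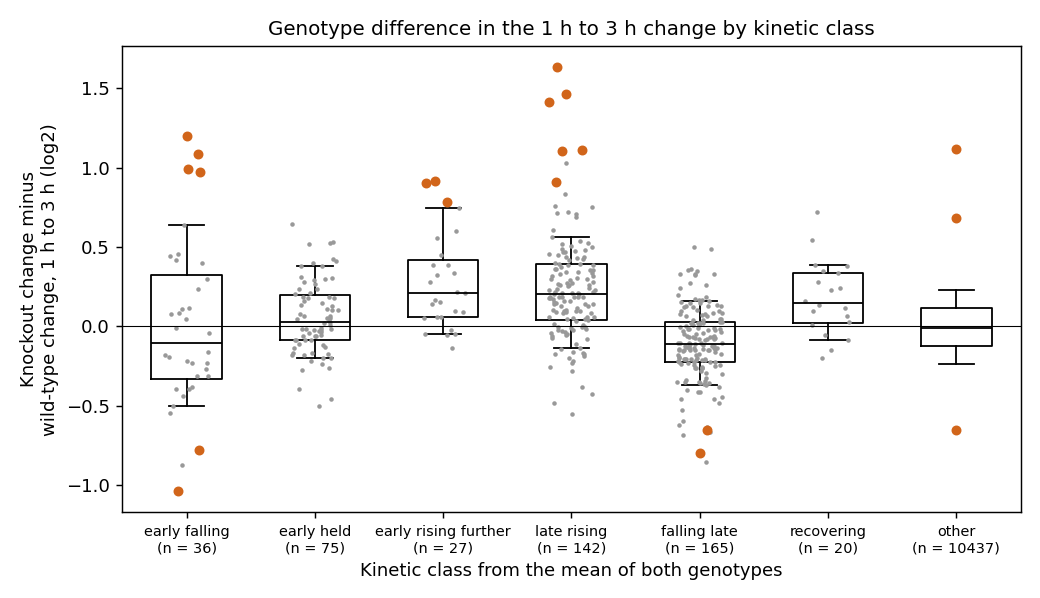
Knockout change minus wild-type change from 1 h to 3 h (y axis, log2) by kinetic class (x axis, with the number of genes). Boxes give the median and quartiles, whiskers the 10th and 90th percentiles, grey points the genes (not drawn for the class of all others) and orange points the called genes. The late rising and early rising further classes centre at 0.20 and 0.21, the falling late class at −0.11, and the early falling class spreads to both sides.

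The falling late class had a median below that of all genes. Of 165 genes down from 1 h to 3 h without an early rise, 51 (30.9%) had a difference above 0, against 48.6% of all genes. The median was −0.11. In this class 2 were called lower and 0 higher, against 0.0459% and 0.138% of all genes. At an unadjusted p below 0.05 there were 28 of the 165, against 6.51% of all genes. Less the median of all genes, the class median was −0.10, with a range of −0.13 to −0.06 with one array left out. It was −0.05 with median scaling over all probes, −0.06 over the tested genes and −0.16 with a 2-fold class threshold. Klf2, a Krüppel-like transcription factor, stood at 6.51, 6.95 and 6.87 in wild type and 7.08, 6.94 and 6.96 in the knockout at 1 h. At 3 h it stood at 5.61, 5.71 and 5.54 in wild type and 4.94, 5.13 and 5.02 in the knockout. It fell 2.23-fold and 3.89-fold, a difference of −0.80 ± 0.16 (adjusted p = 0.036). Ddit4l, a relative of the mTORC1 inhibitor REDD1, fell 1.23-fold and 1.93-fold (−0.65 ± 0.13, adjusted p = 0.045). Fam110b, whose product associates with the centrosome, was not in this class and gave −0.65 ± 0.13 (adjusted p = 0.036). It fell 1.87-fold in the knockout, from a range of 6.59 to 6.82 to one of 5.68 to 5.88. All 3 were apart between the genotypes at 3 h and overlapped at 1 h. Each missed the threshold without most arrays: Klf2 without 9 of the 12, Fam110b without 10 and Ddit4l without 11, with adjusted p up to 0.15. Without background correction Klf2 gave −0.28, Ddit4l −0.32 and Fam110b −0.27, and none passed.

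Rorb and Simc1 were lower in the knockout than in wild type at 1 h by the test (adjusted p = 0.027 and 2.6e-03). Rorb, an orphan nuclear receptor, was dim, with knockout levels of 4.42, 4.32 and 4.49 at 1 h, all undetected, and 5.22, 5.31 and 5.23 at 3 h. Wild-type levels were 4.68, 5.23 and 4.89, then 4.77, 4.48 and 4.72. It rose at least 1.5-fold in the knockout (difference 1.12 ± 0.18, adjusted p = 4.4e-03), and without background correction (0.28) or with the authors' values (0.31) the call was lost. Simc1, named for its SUMO-interacting motifs, ranged from 6.30 to 6.40 in wild type and 5.73 to 5.85 in the knockout at 1 h, and the genotypes overlapped at 3 h. Its difference of 0.68 ± 0.14 (adjusted p = 0.045) was lost without each of the 12 arrays in turn. It was 0.27 without background correction, and a dim second probe gave 0.17.

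**Figure D5:**
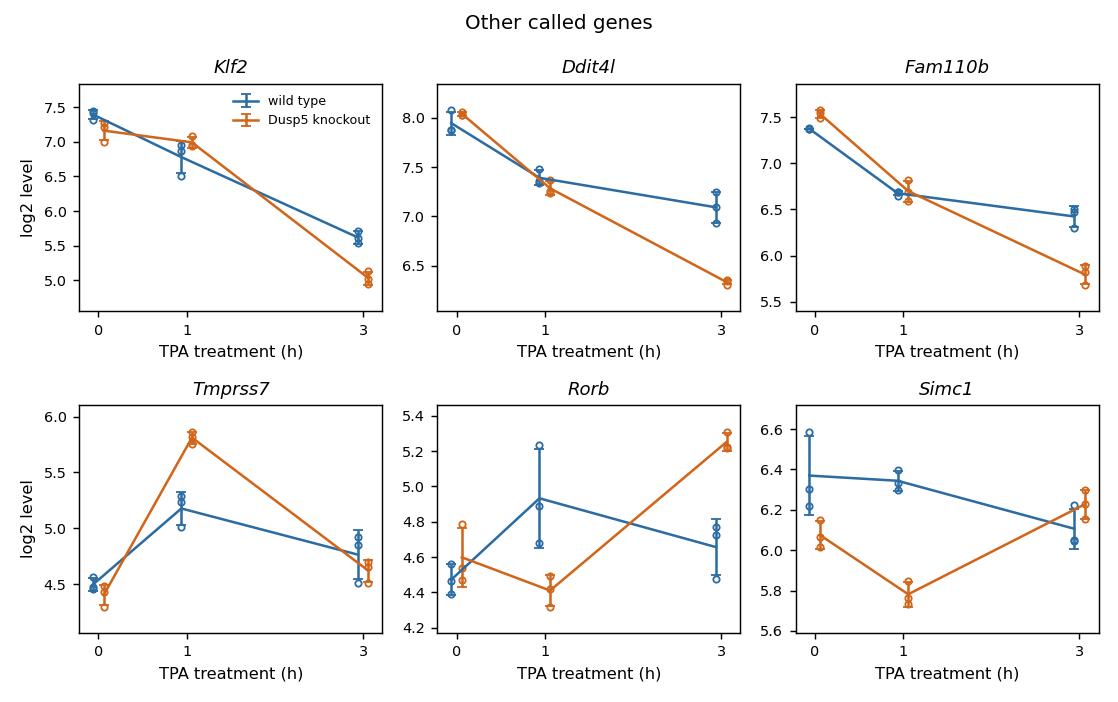
Normalized log2 level (y axis) at 0, 1 and 3 h of TPA (x axis) for the 6 other called genes, with points for the 3 arrays of a group, lines through the means and bars for the SD. Klf2, Ddit4l and Fam110b end lower in the knockout (orange) than in wild type (blue) at 3 h. Tmprss7 peaks higher in the knockout at 1 h, and Rorb and Simc1 are lower there at 1 h.

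The called genes were also located by time. Of the 15 positive genes, 14 were also called between genotypes at 3 h and 5 at 1 h. Those 5 include Rorb and Simc1, which were lower in the knockout at 1 h. Of the 5 negative genes, 3 were called at 3 h and 2 at 1 h. Over all genes 542 (4.97%) were called at 3 h, 2.44% higher and 2.53% lower in the knockout, and 240 (2.2%) at 1 h, 1.09% higher and 1.11% lower. The difference in change is the genotype gap at 3 h less the gap at 1 h. These counts, and those of array overlap below, therefore follow in part from how the genes were chosen. They only locate the difference. The arrays of the genotypes did not overlap at 3 h for 14 of the 15 positive genes, against 22% of all genes. At 1 h they did not overlap for 10, against 17.6%, among them Rorb and Simc1 with the knockout lower. For the 5 negative genes these counts were 4 at 3 h and 2 at 1 h. The split at 1 h depended on scaling: 49.6% of the genes called there were higher in the knockout, against 2.36% with median scaling over all probes and 65.7% with median scaling over the tested genes.

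The promoters of Sstr2 and Ch25h are shown because each holds a cAMP response element, TGACGTCA, in capitals, while the genes moved in opposite directions. They are 300 bases from RefSeq on GRCm38.p6, running from 250 bases before the annotated start to 50 after it. Sstr2 lies at chr11:113619077-113619376 on the plus strand, with the motif beginning 58 bases before the start. Ch25h lies at chr19:34475099-34475398 on the minus strand, with the motif beginning 61 bases before the start.
Sstr2: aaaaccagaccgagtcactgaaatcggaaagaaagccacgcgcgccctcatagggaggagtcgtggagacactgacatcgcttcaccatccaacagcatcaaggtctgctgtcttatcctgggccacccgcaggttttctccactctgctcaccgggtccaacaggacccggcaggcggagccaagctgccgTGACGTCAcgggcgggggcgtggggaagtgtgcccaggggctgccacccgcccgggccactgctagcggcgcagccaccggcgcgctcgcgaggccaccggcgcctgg
Ch25h: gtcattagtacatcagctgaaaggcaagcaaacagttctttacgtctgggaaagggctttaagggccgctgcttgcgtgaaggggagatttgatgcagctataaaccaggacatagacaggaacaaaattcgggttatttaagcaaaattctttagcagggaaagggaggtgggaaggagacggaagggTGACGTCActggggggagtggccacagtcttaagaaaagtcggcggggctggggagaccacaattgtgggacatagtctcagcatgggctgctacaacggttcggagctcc
Of the 20 called genes 12 had a promoter matched by symbol, 9 positive and 3 negative, and of all genes 8823 had one. Egr1, Egr3, Arc, Car2, Pdp1, Foxq1, Tmprss7 and Fam110b had none, so of the early positive genes only Dusp2 was searched. Serpinb2, Il11 and Rorb have 2 starts listed, and only the first was searched. TGACGTCA, searched on both strands, was in 3.17% of all promoters. The AP-1 site TGACTCA, in 3.76% of all promoters, was in none of the 12 and in 9 of 107 late rising genes (8.41%), among them Mmp3, Il1rn and Osgin1. The ETS core CCGGAA (27.7% of all), the CArG box (1.58%) and the EGR site GCGTGGGCG (1.27%) were in none of the 12; this says only that these letters are not in these windows.

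Of 24 gene lists, 4 held a called gene and 20 held none. A list of 25 early transcription factors and companions also holds Arc, which is not a transcription factor. In it Egr1, Egr3 and Arc were called positive and Klf2 negative, against 0.138% and 0.0459% of all genes. The list median was 0.09, and 11 of the 25 had an unadjusted p below 0.05, against 6.51% of all genes. Of this list 18 members fell from 1 h to 3 h in wild type and 19 in the knockout, against 4.8% and 6.45% of all genes. Among 14 ERK feedback regulators Dusp2 was called positive, against 0.138% of all genes. Of the 14 values 11 were above 0 (median 0.11), against 48.6% of all genes, and 5 had an unadjusted p below 0.05. Spred2 (0.76, adjusted p = 0.23) and Dusp10 (0.38) were the next highest there, and Dusp8 (−0.35) and Dusp1 (−0.30) the lowest. The list was not limited to Dusp phosphatases that act on ERK. None of 13 other ERK output genes passed in the limma fit (1 at an unadjusted p below 0.05, against 6.51% of all genes). Etv1 stood at −0.61 (adjusted p = 0.34), and the median was 0.00.

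The inflammatory genes held no call in the limma fit. Of 23 chemokines and NF-kB genes, 8 were above 0, against 48.6% of all genes, and the median was −0.08. In wild type 10 of them rose and 5 fell from 1 h to 3 h, against 5.43% and 4.8% of all genes. In the knockout 8 rose and 6 fell, against 7.48% and 6.45%. Cxcl1 (−0.87), Ccl20 (−0.50), Ccl2 (−0.46) and Ccl7 (−0.44) were its lowest values and did not pass; 7 of the 23 had an unadjusted p below 0.05, against 6.51% of all genes. Of 7 mRNA decay factors, whose products shorten the life of early transcripts, 1 was above 0 (Zc3h12a, 0.13), with Zfp36l1 at −0.51 (adjusted p = 0.22) and a median of −0.13; 2 had an unadjusted p below 0.05. No call was made among 16 NRF2 targets, 18 SRF, MRTF and YAP targets, 17 p53 targets, 11 clock genes, 19 proliferation genes, 16 ribosome biogenesis genes, 20 heat shock and unfolded protein genes, 16 glycolysis genes, 11 sterol synthesis genes or 7 interferon genes. At an unadjusted p below 0.05 these lists held at most 3 genes each, and the SRF, proliferation, ribosome and interferon lists 0. There were 3 of 11 clock genes, 3 of 16 NRF2 targets, 3 of 17 p53 targets and 3 of 20 heat shock genes. The share of all genes was 6.51%. Of the 19 proliferation genes, 5 were called lower in the knockout at 1 h, against 1.11% of all genes, and 8 at 3 h, against 2.53%, with none called higher, and their median difference in change was −0.01.

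No marker list held a gene called in the difference in change. The summed level of 15 fibroblast markers, collagens and matrix genes among them, was 15.37 to 15.57 (log2) on all arrays at 1 h and 3 h, and none had an unadjusted p below 0.05 in the difference. The summed epithelial list was 9.36 to 9.58 in wild-type arrays and 9.96 to 10.10 in knockout arrays at these times, and the neural and glial list 9.04 to 9.22 and 9.30 to 9.62. Of 10 epithelial genes tested, 2 were called higher in the knockout at 1 h and 3 at 3 h, against 1.09% and 2.44% of all genes. None was called lower. Lce1f (1.31 at 1 h) and Ivl (1.09) had the largest gaps, which untreated cells also showed (1.06 and 1.00). Krt18 (−0.16 at 1 h, −0.20 at 3 h), Sprr1a (−0.20, −0.08) and Cdh1 (−0.03, −0.14) were lower in the knockout without a call. Krt5 and Epcam were undetected on all 18 arrays, Krt14 was detected on 1 and Sprr1b on 2. Of 4 neural genes tested, 1 was called higher at each time. Ptprc, Itgam and Hba-a1 of the macrophage and blood list were undetected on all 18 arrays, while Lyz2, Cd14, Fcer1g, Adgre1 and Csf1r were detected on all 18, Tyrobp on 17, Spi1 on 5 and Hbb-bt on 2. Summed over that list, the TPA-treated arrays lay between 9.89 and 10.02 for wild type and between 9.84 and 10.14 for the knockout. Of the neural and glial list, Sox10, Gfap and S100b were undetected on all 18 arrays, and Nes, Map2 and Stmn2 were detected on all 18. In bulk RNA, fewer cells of a type and less RNA per cell cannot be told apart. The part of these marker levels in the results was not tested.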

How the data were processed

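Total RNA was biotin labelled and hybridised to Illumina mouse arrays, per the labels' protocols. The authors deposited intensities that are not normalized, per the file headers, with a detection p-value beside each one. Their series matrix holds deposited normalized log2 values, which served as an alternative; its background step and scaling are not stated in the labels.

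Groups came from the sample titles. They were processed with neqc (limma 3.58.1, R 4.3.3), which corrects background by normexp, here from detection p-values, adds an offset (16), quantile normalizes and takes log2. Of 45281 probes, 20239 had a detection p-value below 0.05 on at least 3 of 18 arrays. Of these, 17288 carried 1 gene symbol in the platform annotation, 9 several and 2942 none. The brightest kept probe stood for each of 10902 genes, and 4238 genes had several. A gene whose arrays in a group are undetected has only a bound there. The number of arrays limits the precision.

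A limma model of 6 group means was fitted over all 18 arrays (12 residual degrees of freedom), with Benjamini-Hochberg adjustment over all genes within each of 5 comparisons. The calling was tested on simulated data. Named were Dusp5, Serpinb2, Fos, Egr1 and Dusp6, up to 15 called genes in each direction, up to 4 called members of a list or 2 of largest difference where none passed, and up to 6 called members of a class; other early falling and rising members are given by value only, chosen after their values were seen. Members, lists and tests were chosen with earlier results of these data known. Alternatives were the series matrix, no background correction, median scaling, other detection filters, the mean of probes, a variance trend, array weights, fewer arrays, a replicate block, a 1.5-fold threshold and each array left out; median scaling restricted to tested genes was a later addition, made after seeing the data. Slide information was not used here, and 1 gene list is not reported here. Promoters are from RefSeq on GRCm38.p6.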

Additional observations from a re-analysis of the deposited data

Results flagged for a closer look

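The 20 genes called in the genotype difference are listed here because their change from 1 h to 3 h of TPA differed between wild-type and knockout cells by a test of the difference itself. Values are the knockout change minus the wild-type change on the log2 scale.

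Car2 (1.63), Sstr2 (1.47), Slpi (1.41), Fam83g (1.11) and Egr1 (0.99) were called under every alternative, although without background correction they stood at 0.61, 0.56, 0.66, 0.77 and 0.96. Arc (1.20), Dusp2 (1.09), Rorb (1.12) and Ch25h (−1.04) were called with each array left out, and each missed the threshold in at least 1 of the other settings.

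The remaining genes also depended on single arrays. Btc (1.11) was kept only without wild-type 1 h replicate 3, knockout 1 h replicate 3, wild-type 3 h replicate 3 or knockout 3 h replicate 2, and Egr3 (0.98) only without wild-type 1 h replicate 2 or 3, knockout 1 h replicate 3 or wild-type 3 h replicate 2. Serpinb2 (0.92) was kept only without wild-type 1 h replicate 3, wild-type 3 h replicate 2 or knockout 3 h replicate 2. Pdp1 (0.91) was kept only without wild-type 1 h replicate 1 or knockout 3 h replicate 2. Foxq1 (0.91) was kept only without wild-type 1 h replicate 1, knockout 1 h replicate 3 or knockout 3 h replicate 1, and Il11 (0.78) only without wild-type 1 h replicate 3, knockout 1 h replicate 3 or knockout 3 h replicate 2. Simc1 (0.68) was lost without any 1 of the 12 arrays. Among the negative genes, Fam110b (−0.65) was kept only without knockout 1 h replicate 3 or wild-type 3 h replicate 1, and Ddit4l (−0.65) only without wild-type 3 h replicate 2. Tmprss7 (−0.78) was kept only without wild-type 1 h replicate 3 or wild-type 3 h replicate 3. Klf2 (−0.80) was kept only without wild-type 1 h replicate 2 or 3 or knockout 3 h replicate 2. Without an array that ended a call, the difference kept its sign and stayed between 0.65 and 1.14 for the positive genes and between −0.84 and −0.57 for the negative ones.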

How the results depend on the processing

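Counts of genes called in the genotype difference moved with the fit. The main count of 20 became 44 with array weights, 11 with only the 1 h and 3 h arrays, and 12 with median scaling over the tested genes (10 higher, 2 lower). Median scaling over all probes gave 17, all higher, against 75% higher in the main fit. The series matrix values and no background correction gave 15 each, both with 86.7% higher. With 1 array left out it was 9 to 16, and at most 13 without any array other than wild-type 1 h replicate 3, knockout 1 h replicate 3 or knockout 3 h replicate 2. Of the 20 genes, 9 were kept in all 12 such fits, 6 in all other settings and 5 in both.

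Median scaling gave 653 genes for the wild-type change (33.2% higher, against 53.1%), 964 for the knockout change (74.8% higher, against 53.7%), 889 between genotypes at 1 h (2.36% higher, against 49.6%) and 179 at 3 h. With median scaling over the tested genes these comparisons gave 1100 (52% higher), 1278 (50.9%), 286 (65.7%) and 447 (60.6%, against 49.1%). Array weights gave 406 at 1 h and 881 at 3 h. With a 1.5-fold threshold the counts were 405, 604, 81 and 160. With 1 array left out they were 790 to 1165, 1203 to 1524, 123 to 265 and 348 to 545. The early falling class was also set anew in each setting. Its median less that of all genes was −0.10, 0.42 with a 2-fold class threshold, 0.03 with the series matrix values and 0.02 with median scaling. Median scaling over all probes moved the median difference of all genes from −0.01 to 0.20, so slightly negative values changed sign with it: Dusp6 (0.15), Ccne1 (0.12), Acta1 (0.11), Ccn1 (0.10), Cdc20 (0.11) and Cdc42ep1 (0.023). Tnnt1 changed sign under array weights (0.040). The causes of the other shifts were not tested.

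With the replicate number as a block, 22 genes were called (17 higher, 5 lower), 18 of them shared with the main fit. Same-numbered arrays correlated in their deviations from group means at −0.08 to 0.17 (median 0.03), with 4 of 18 pairs above 0.1. Arrays of different number correlated at −0.21 to 0.19 (median −0.01), with 2 of 36 pairs above 0.1. Of 12 arrays, 6 were closest to their own number. The labels do not say that the numbers pair the arrays, and whether they do was not tested. Signal near background limits Car2, Sstr2, Btc, Rorb, Tmprss7 and Dusp2. It also limits Slpi and Foxq1, detected on 14 and 12 of 18 arrays, and Arc in wild type at 3 h.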
